A study of Homo sapiens with 8 samples.

Results

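The chromosomal passenger complex and the core cytokinesis machinery were followed through 10 genes, taken by their symbols from a table of read counts for 16082 genes. They are the passenger complex subunits BIRC5, AURKB, INCENP and CDCA8 and the cytokinesis genes ANLN, PRC1, ECT2, RACGAP1, CIT and CEP55. All 10 were among the 12001 genes with enough reads to be tested. The libraries were made from poly(A) RNA of KYSE150, an established line of human esophageal squamous cell carcinoma. In 4 libraries the genotype label is control, and in 4 it is shHNRNPC, a short hairpin RNA against the nuclear RNA-binding protein HNRNPC; the treatment label is none in both groups, and neither the hairpin used in the control cells nor the number of clones is given in the sources used here. Nothing in the labels says whether the 4 samples of a group were separate cultures; the p-values therefore reflect variation among the deposited samples, and that variation may be technical.

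The chromosomal passenger complex carries the kinase Aurora B to centromeres in early mitosis, where it destabilises faulty attachments of microtubules, and moves to the spindle midzone at anaphase. There it works with the microtubule bundler PRC1 and with centralspindlin, which recruits the RhoA activator ECT2 to the cell equator. RhoA then drives a ring of actin and myosin II that is organised by anillin and citron kinase, and CEP55 finally brings the ESCRT membrane-severing machinery to the midbody. Most of these genes are transcribed late in the cell cycle, under promoters with a cell cycle genes homology region and NF-Y boxes that are repressed in G1 by the DREAM complex and activated later with B-MYB and FOXM1. In RNA from a whole culture, a larger share of cells in late cell cycle phases and more RNA per such cell cannot be told apart.

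HNRNPC checks the labels. Its level was 601, 590, 571 and 587 CPM (a read count taken relative to the size of its library, with edgeR's TMM correction) in control libraries 1 to 4 and 33.8, 32.9, 32.5 and 36.5 CPM in the shHNRNPC libraries. Library totals were 28323403 to 34913500 counts, so every member rested on 1434 to 35548 reads in each library. A list of 12 epithelial markers held squamous genes and more general ones such as KRT8, KRT18 and EPCAM. Their summed level was 4410 to 4506 CPM in the control libraries and 5984 to 6133 CPM after knockdown. EGFR (1495 CPM), KRT18 (869 CPM) and KRT8 (786 CPM) had the highest control means, so the sum does not measure squamous identity. KRT19 and SOX2 stayed below 1 CPM, and the other 10 were tested. Of the 10, 6 rose, among them KRT5 (log2 fold change 0.99), KRT8 (1.10) and KRT17 (1.70), and 4 fell, namely EGFR (-0.84), TP63 (-0.45), KRT14 (-0.77) and KRT6A (-1.62). The summed markers of immune cells were at 212 to 225 CPM and 102 to 106 CPM, nearly all from CD68, those of fibroblasts at 3.65 to 3.88 and 8.38 to 9.50 CPM, and those of endothelial cells at 2.15 to 2.45 and 1.24 to 1.84 CPM; their part in the results below was not tested.

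Promoter windows of RefSeq genes, running from 250 bases before to 50 bases after an annotated start in GRCh38.p14, were matched for 8 of the 10 genes by gene identifier, with 10 windows in all because AURKB and ECT2 have 2 starts each. BIRC5 and RACGAP1 had no entry. Of these, 5 windows are printed 5′ to 3′ because they carry the words that the members share or, for AURKB, lack the first of them. Capitals mark TTTGAA, the core of the cell cycle genes homology region, and CCAAT, the NF-Y box, on either strand, so that TTCAAA and ATTGG are the same words on the other strand.
INCENP, chr11:62123761-62124060, plus strand: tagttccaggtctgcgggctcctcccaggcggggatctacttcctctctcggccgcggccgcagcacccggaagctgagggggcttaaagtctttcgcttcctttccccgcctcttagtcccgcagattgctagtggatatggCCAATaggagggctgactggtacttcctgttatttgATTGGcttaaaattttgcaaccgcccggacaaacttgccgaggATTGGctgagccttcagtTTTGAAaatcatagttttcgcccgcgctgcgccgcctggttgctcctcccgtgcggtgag
CDCA8, chr1:37692266-37692565, plus strand: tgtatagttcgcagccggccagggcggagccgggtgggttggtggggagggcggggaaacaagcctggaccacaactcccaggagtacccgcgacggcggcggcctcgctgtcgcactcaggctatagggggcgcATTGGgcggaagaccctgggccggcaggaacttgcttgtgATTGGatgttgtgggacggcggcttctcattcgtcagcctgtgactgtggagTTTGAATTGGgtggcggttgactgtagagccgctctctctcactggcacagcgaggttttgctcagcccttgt
AURKB, first start, chr17:8210176-8210475, minus strand: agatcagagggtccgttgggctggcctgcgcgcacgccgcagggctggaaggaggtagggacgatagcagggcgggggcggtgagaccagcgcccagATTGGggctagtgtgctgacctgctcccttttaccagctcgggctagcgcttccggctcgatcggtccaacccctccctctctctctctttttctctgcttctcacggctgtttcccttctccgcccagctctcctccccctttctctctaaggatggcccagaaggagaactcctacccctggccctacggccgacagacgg
ANLN, chr7:36389612-36389911, plus strand: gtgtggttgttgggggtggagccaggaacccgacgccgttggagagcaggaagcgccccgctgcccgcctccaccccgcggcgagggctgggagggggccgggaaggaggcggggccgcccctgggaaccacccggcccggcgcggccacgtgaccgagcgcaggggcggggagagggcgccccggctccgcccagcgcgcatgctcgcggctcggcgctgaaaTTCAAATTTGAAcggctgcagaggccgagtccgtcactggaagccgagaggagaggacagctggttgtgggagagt
PRC1, chr15:90994486-90994785, minus strand: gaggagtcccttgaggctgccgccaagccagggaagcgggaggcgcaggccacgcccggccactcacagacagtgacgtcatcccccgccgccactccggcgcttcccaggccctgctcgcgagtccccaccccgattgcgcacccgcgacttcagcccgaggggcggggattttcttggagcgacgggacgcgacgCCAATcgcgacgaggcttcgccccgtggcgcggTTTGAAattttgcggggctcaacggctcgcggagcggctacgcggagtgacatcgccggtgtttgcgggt

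The word TTTGAA was present in the windows of 7 of the 8 genes, or 80.0% of the 10 windows, against 10.5% of 14423 windows of tested genes and 15.2% of all 35116 windows in the table. The 2 windows of ECT2 overlap, and the TTTGAA at position 35 from its first start is the site at position -242 from its second. Each ECT2 window also holds another TTTGAA outside the overlap, at -115 from the first start and -182 from the second. CCAAT was also found for 7 of the 8 genes (80.0% of windows, against 5050 of the 14423 windows of tested genes). Both words occurred together for 6 genes, in 60.0% of member windows against 4.80% of windows of tested genes that held CCAAT with either form of the homology region. The gene without TTTGAA was AURKB, whose 2 overlapping windows hold a single shared ATTGG. They end at bases 8210475 and 8210499 of chromosome 17, short of the outermost annotated end of this minus-strand gene at 8210575. The sequence upstream of that end was therefore not searched. The gene without CCAAT was ANLN, where TTCAAA and TTTGAA stand side by side 26 and 20 bases before the start. In PRC1, CDCA8 and INCENP the TTTGAA began 20, 23 and 10 bases before the start. In CDCA8 it overlaps an ATTGG by 1 base, and in CIT a CCAAT runs directly into a TTCAAA. The alternative form TTCGAA occurred in 0 of the 10 windows (1.58% of windows of tested genes) and the E2F-like word GCGGGAA in 1, that of CEP55 (9.57%). A 6-base word occurs often by base composition alone, so a match describes the letters of a window and not a bound site.

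**Figure D1:**
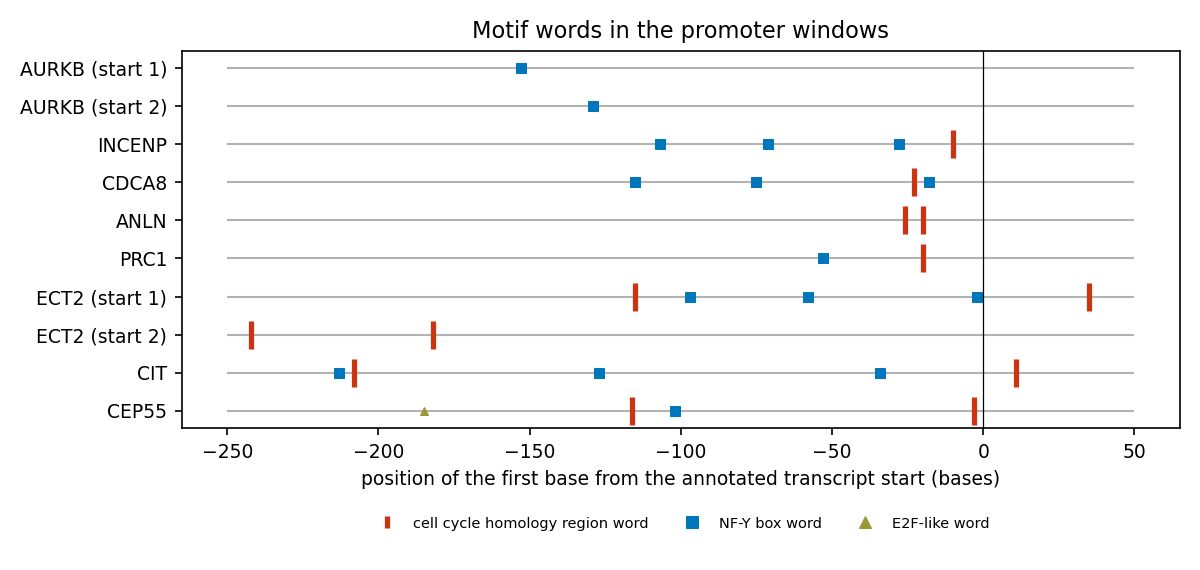
Position of the motif words in the 10 promoter windows of 8 members, in bases from the annotated transcript start (vertical line). Red bars are the homology region word, blue squares the NF-Y box word and the triangle the E2F-like word. AURKB is the one gene with no red bar, and ANLN the one gene with no blue square. The AURKB windows do not reach the outermost annotated start of that gene. The 2 ECT2 windows overlap, and 1 red bar is the same site drawn in both (35 from the first start, -242 from the second).

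All 10 genes rose in the shHNRNPC libraries, and none fell. By edgeR's quasi-likelihood test with Benjamini-Hochberg adjustment over all genes, 10 of 10 were called higher, where 38.7% of all tested genes were called higher, 38.6% lower and 77.3% in either direction. The median log2 fold change of the members was 0.76, against -0.01 over all genes tested. Because most genes pass that test, a stricter one (edgeR's glmTreat) asked whether a change was larger than 1.5-fold. It called 6 of the 10, namely BIRC5, ANLN, PRC1, INCENP, CIT and CDCA8, against 6.62% of all tested genes called higher and 8.33% called lower in this way (14.9% in all). Of 46 other mitotic genes described below, 25 were also called higher in this way and 0 lower. In none of the 10 genes did any control library reach the level of any shHNRNPC library, a separation shown in the same direction by 35.4% of tested genes and in either direction by 70.8%. The 10 genes together took 0.132%, 0.129%, 0.131% and 0.131% of all counts in control libraries 1 to 4 and 0.248%, 0.247%, 0.244% and 0.242% in the shHNRNPC libraries.

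**Figure D2:**
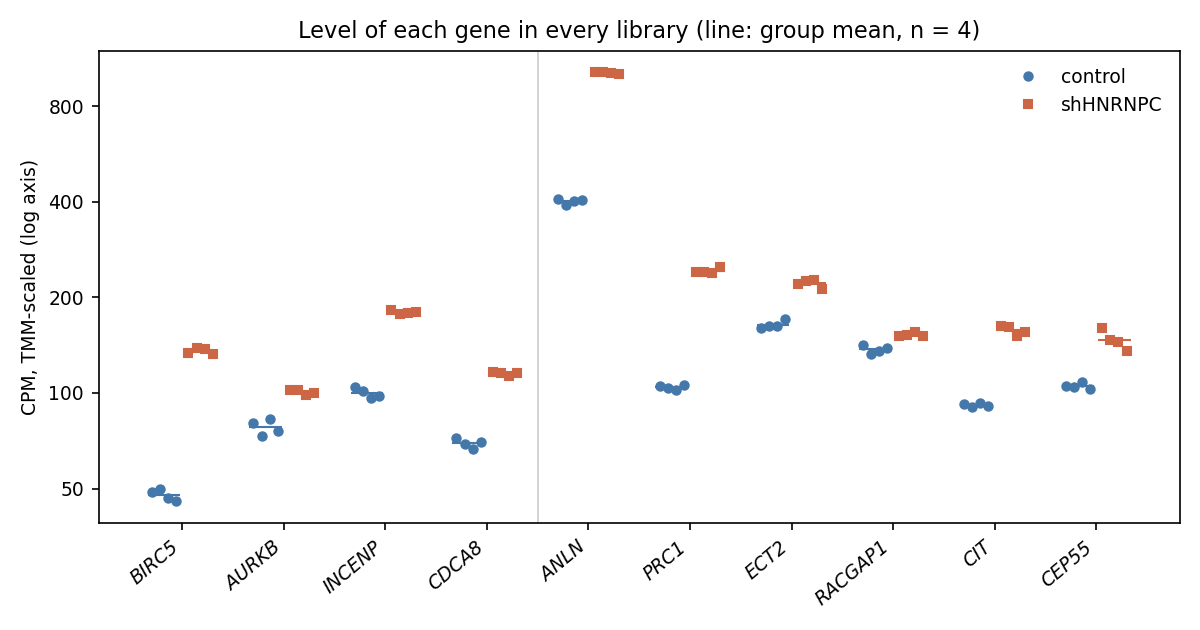
TMM-scaled CPM of the 10 genes in every library on a log axis, with control libraries as circles, shHNRNPC libraries as squares and group means (n = 4) as lines; passenger complex subunits are left of the vertical line. The shHNRNPC libraries lie above the control libraries in all 10 genes, with the narrowest gap in RACGAP1.

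Of the passenger complex, BIRC5 rose most. BIRC5 encodes survivin, which docks the complex on phosphorylated histone H3 at centromeres; the gene lies on the plus strand of chromosome 17 (78214253 to 78225635). Its level was 48.9, 49.8, 46.8 and 45.6 CPM in control libraries 1 to 4 and 133, 138, 137 and 132 CPM in the shHNRNPC libraries, or 283% of control. No BIRC5 value of one group came near the other. On the log2 scale BIRC5 rose by 1.5 (SE 0.032; adjusted p = 7.3e-48 by edgeR), more than 98.9% of tested genes.

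INCENP and CDCA8, the scaffold that activates Aurora B and the subunit borealin that joins survivin to it, rose by similar amounts. INCENP (chromosome 11, 62124011 to 62153169) was at 105, 101, 96.7 and 98.1 CPM in the control libraries and at 182, 178, 178 and 179 CPM after knockdown. This was a rise to 179% of control, with a log2 fold change of 0.84 (SE 0.026, edgeR adjusted p = 1.9e-38). CDCA8 (chromosome 1, 37692516 to 37709719) was at 71.9, 68.9, 66.4 and 70.2 CPM in the control libraries and at 116, 116, 113 and 115 CPM in the shHNRNPC libraries. It reached 166% of control (log2 fold change 0.73, SE 0.030, edgeR adjusted p = 7.0e-32). The windows of both hold 3 NF-Y words and a TTTGAA. So do those of CIT, which rose by a similar amount (0.78), and of the first start of ECT2, which rose less (0.43).

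AURKB, the catalytic subunit, rose least of the complex. Its level was 80.2, 73.2, 83.0 and 75.9 CPM in the control libraries and 102, 102, 98.3 and 99.8 CPM in the shHNRNPC libraries, 129% of control. The control values of AURKB spread more widely (SD 4.37 CPM) than its shHNRNPC values (SD 1.93 CPM), yet the groups did not meet. On the log2 scale AURKB rose by 0.37 (SE 0.032; adjusted p = 4.3e-16 by edgeR), which did not pass 1.5-fold. AURKB lies on the minus strand of chromosome 17 (8204731 to 8210575).

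The transcripts of the subunits therefore changed in their proportions to each other. Protein was not measured. Ratios of raw counts between 2 genes in the same library do not depend on how libraries are scaled, and all 45 pairs of members were compared with an exact two-sided permutation test over 70 assignments and adjusted over the 45 pairs. The BIRC5 to AURKB count ratio was 0.610, 0.680, 0.563 and 0.600 in control libraries 1 to 4 and 1.30, 1.36, 1.4 and 1.33 in the shHNRNPC libraries. Its mean moved by 1.14 on the log2 scale (exact permutation p = 0.0286, the smallest the 4 against 4 design allows; adjusted p = 0.0321). BIRC5 also gained on INCENP, from a mean ratio of 0.476 to 0.754, and on CDCA8, from 0.688 to 1.18. AURKB lost against INCENP, from 0.778 to 0.561, and against CDCA8, from 1.12 to 0.876. INCENP and CDCA8 stayed closest, at a mean ratio of 1.44 in the control and 1.56 in the shHNRNPC libraries, a log2 shift of 0.11. The groups did not overlap in any of the 6 subunit pairs, as in 67.8% of all 71802136 pairs of tested genes with a count in every library, and each subunit pair had the same exact permutation p (0.0286, adjusted p = 0.0321).

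Over all members, 40 of the 45 ratios differed between groups (exact permutation adjusted p = 0.0321 for each). The share over all pairs of genes was 67.8%, as above, so separation of a ratio was common in these libraries. The 5 that did not pass were AURKB to ECT2, AURKB to CEP55, ECT2 to CEP55, INCENP to CIT and CDCA8 to CIT. Their log2 shifts were -0.06, -0.11, -0.05, 0.06 and -0.05, with exact permutation adjusted p of 0.351, 0.0941, 0.543, 0.209 and 0.209. In log2 units, single shHNRNPC libraries differed from single control libraries by -0.24 to 0.09 for AURKB to ECT2, by -0.26 to 0.08 for AURKB to CEP55, by -0.27 to 0.06 for ECT2 to CEP55, by -0.05 to 0.18 for INCENP to CIT and by -0.13 to 0.06 for CDCA8 to CIT. A p above the threshold does not show that these genes responded alike.

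**Figure D3:**
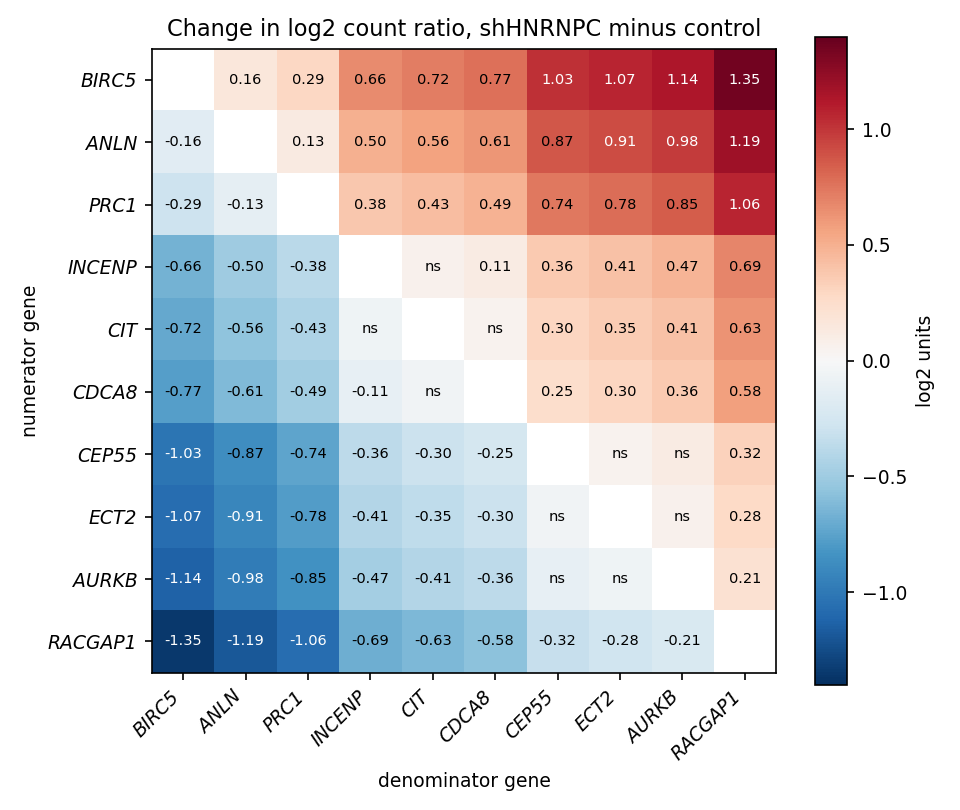
Shift of the log2 count ratio between each pair of members, shHNRNPC minus control, with the row gene over the column gene and genes ordered by their own log2 fold change; ns marks the 5 pairs whose exact permutation adjusted p was above 0.05. The shift is largest for BIRC5 over RACGAP1 (1.35).

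Among the cytokinesis genes, ANLN and PRC1 rose more than 2-fold. ANLN encodes anillin, which ties actin, myosin, septins and RhoA together in the cleavage furrow. It was the most abundant member, at 407, 391, 403 and 406 CPM in the control libraries and 1023, 1023, 1020 and 1012 CPM in the shHNRNPC libraries, or 254% of control. The shHNRNPC libraries agreed to within an SD of 5.37 CPM, or 0.527% of the mean (log2 fold change 1.34, SE 0.019, edgeR adjusted p = 4.0e-58). ANLN lies on chromosome 7 (36389862 to 36453791).

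PRC1 encodes the protein that crosslinks antiparallel microtubules of the midzone. Its CPM were 105, 103, 102 and 106 in the control libraries and 240, 241, 239 and 248.7 in the shHNRNPC libraries, 232% of control. The groups were far apart, with a log2 fold change of 1.22 (SE 0.024, edgeR adjusted p = 3.5e-49). PRC1 lies on the minus strand of chromosome 15 (90966040 to 90994535), and 58.4% of its exon bases overlap other genes in GENCODE release 29. Nearly all of that (57.6%) belongs to the readthrough gene AC068831.7 on the same strand, and 7.35% to the antisense gene PRC1-AS1, so reads of those transcripts could not be separated from PRC1.

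CIT rose to an intermediate degree. It encodes citron kinase, which keeps the contractile ring linked to the midbody. Its level was 92.1, 90.3, 92.8 and 91.1 CPM in the control libraries and 162, 161, 151 and 156 CPM in the shHNRNPC libraries, 172% of control (log2 fold change 0.78, SE 0.027, edgeR adjusted p = 6.1e-36). CIT (chromosome 12, 119685791 to 119877320) has 6 coding transcripts in GENCODE release 29, and counts per gene do not tell its kinase and short forms apart. Its change stood closest to the mean profile of the 10 members, a mean that includes CIT itself. The root mean square distance was 0.025 log2 units over the 8 libraries, where BIRC5 was at 0.51 and RACGAP1 at 0.45.

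ECT2 and RACGAP1, which act together upstream of RhoA, rose less than ANLN and PRC1. ECT2, the guanine nucleotide exchange factor that activates RhoA at the equator, was at 160, 162, 162 and 171 CPM in the control libraries and at 220, 226, 227 and 212 CPM in the shHNRNPC libraries. It rose to 135% of control (log2 fold change 0.43, SE 0.024, edgeR adjusted p = 8.2e-25), above 84.2% of tested genes, and control library 4 stood apart from the other 3. RACGAP1, the centralspindlin subunit that binds ECT2, was at 142, 133, 136 and 139 CPM and at 152, 152, 155 and 152 CPM, only 111% of control. The RACGAP1 groups lay close together without overlap, and the change was called (log2 fold change 0.15, SE 0.025, edgeR adjusted p = 1.6e-07) although 64.8% of tested genes had a lower value. The ECT2 to RACGAP1 count ratio was 1.13, 1.22, 1.19 and 1.23 in the control libraries and 1.45, 1.48, 1.46 and 1.4 in the shHNRNPC libraries (exact permutation adjusted p = 0.0321). RACGAP1 (chromosome 12, 49989162 to 50033440) has an annotated processed pseudogene, RACGAP1P, which could share reads with it, and ECT2 lies on chromosome 3 (172750726 to 172829265).

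CEP55, which recruits the ESCRT proteins to the midbody for abscission, varied most between knockdown libraries. It was at 105, 105, 108 and 103 CPM in the control libraries and at 160, 147, 145 and 136 CPM in the shHNRNPC libraries, the highest value in library 1 and the lowest in library 4. Its SD was 2.04 CPM in the control and 10.2 CPM in the shHNRNPC group, 6.95% of the mean, the largest relative spread of any member in either group. CEP55 rose to 140% of control (log2 fold change 0.48, SE 0.036, edgeR adjusted p = 7.2e-11) and did not pass 1.5-fold. The gene lies on chromosome 10 (93496612 to 93529092).

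**Figure D4:**
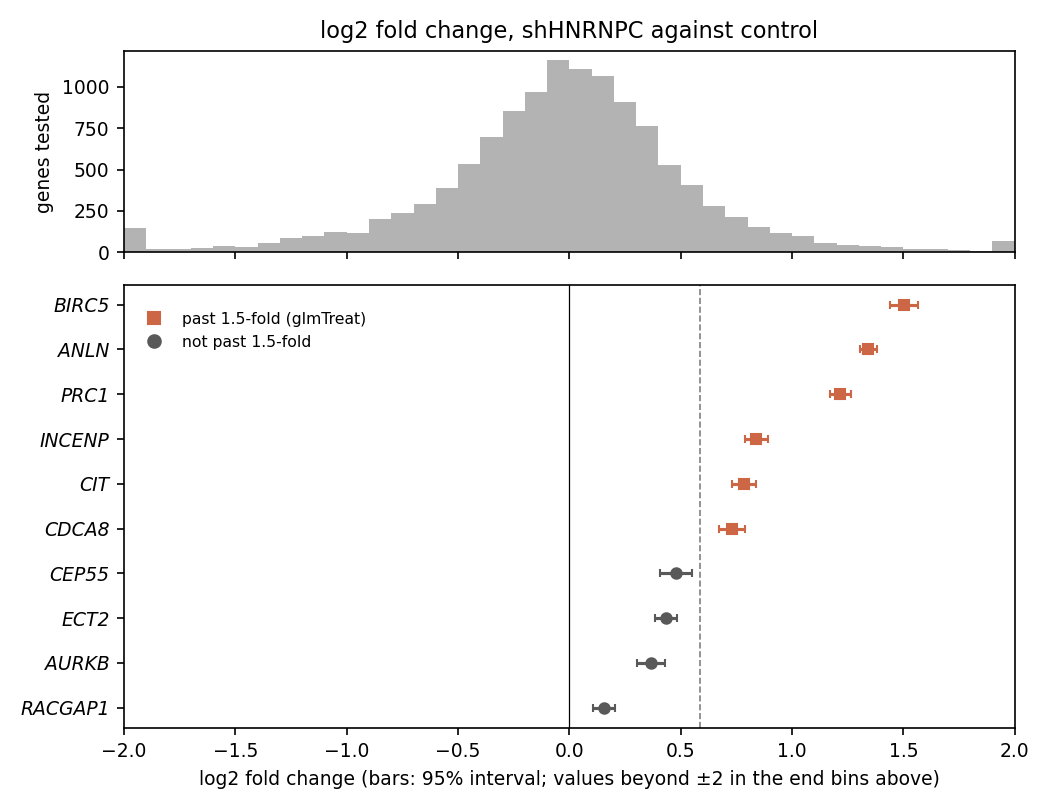
Upper panel, log2 fold changes of all 12001 tested genes; lower panel, the 10 members with bars of the 95% interval, and a dashed line at 1.5-fold. The 6 members past 1.5-fold by glmTreat are squares and the 4 others circles; RACGAP1 (0.15) is nearest to 0 and BIRC5 (1.5) farthest.

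Levels of different genes were compared per length, as CPM per kilobase of the longest principal coding transcript in GENCODE release 29; another choice of transcript would move this order. In the control libraries ANLN led with 83.9 ± 1.51 CPM per kilobase (SD, n = 4), followed by AURKB (63.6 ± 3.56), RACGAP1 (42.5 ± 1.16), CEP55 (39.9 ± 0.775), ECT2 (37.2 ± 1.11) and PRC1 (34.4 ± 0.563). Below them were CDCA8 (28.1 ± 0.941) and INCENP (27.1 ± 0.970), the only neighbours whose libraries overlapped, and then BIRC5 (18.2 ± 0.736) and CIT (10.5 ± 0.128). In the shHNRNPC libraries ANLN stood at 213 ± 1.12 CPM per kilobase, and PRC1 (79.8 ± 1.46) had reached AURKB (82.0 ± 1.57). CEP55 (55.7 ± 3.87), BIRC5 (51.5 ± 1.12), ECT2 (50.2 ± 1.55), INCENP (48.5 ± 0.569), RACGAP1 (47.3 ± 0.572) and CDCA8 (46.6 ± 0.594) followed as a chain in which each overlapped the next, with CIT last (18.1 ± 0.606). BIRC5 had the lowest control level per length of the 4 subunits, and after knockdown its libraries all lay above those of INCENP and CDCA8 and below those of AURKB.

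The surrounding pathway was described by lists that hold none of the 10 members. Over all tested genes 38.7% were called higher and 38.6% lower, the shares to set beside the counts of every list. Of 26 genes that recruit, move or counteract the passenger complex, 20 rose, 4 fell and 2 did not pass the test, with a median log2 fold change of 0.41. AURKA, the sister kinase of the spindle poles, was at 120 to 122 CPM in the control libraries and 253 to 264 CPM after knockdown (log2 fold change 1.09). CDCA2 (0.93), which carries a phosphatase that opposes the complex on chromosomes, and the polo kinase PLK1 (0.91) rose as well. The abundant CBX3 (0.37) rose slightly, and the ubiquitin protease USP9X (0.06) was called but lost its call with total counts or upper quartile factors (largest edgeR adjusted p = 0.124). AURKC, the germline relative of AURKB, was called (1.02) at only 0.638 ± 0.123 and 1.31 ± 0.409 CPM (SD, n = 4), and lost the call without shHNRNPC libraries 1 and 4 (edgeR adjusted p = 0.0841). The kinases BUB1 and HASPIN write histone marks through which the complex is recruited. Chosen after their values were seen, BUB1 rose by 0.69 and HASPIN by 0.44, and the heterochromatin protein CBX5 fell (-0.58).

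Of 19 tested midzone genes, 16 rose and 3 fell, with a median of 0.64. FAM83D, a spindle protein, rose by 1.26 (67.2 ± 1.73 CPM in the control and 160 ± 2.13 CPM in the shHNRNPC libraries; SD, n = 4), and the kinesin KIF20B rose by 1.09. The exchange factor ARHGEF39 also rose (1.26), with 27.0% of its exon bases overlapping CCDC107 or CA9 on the opposite strand, and the spindle assembly factor TPX2, the most abundant of the list, rose by 0.81. KIF23, the partner of RACGAP1 in centralspindlin and chosen after its values were seen, rose from 128 to 223 CPM (0.80), so the subunits of centralspindlin differed in the size of their log2 fold change (0.80 and 0.15); that difference was not tested.

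Of 43 tested genes of RhoA signalling, actin, myosin II and septins, 31 rose and 10 fell (median 0.29), and 6 rose and 4 fell past 1.5-fold, beside 6.62% and 8.33% of all tested genes. Beta-actin, ACTB, was at 4713 ± 146 CPM in the control and 7368 ± 133 CPM in the shHNRNPC libraries (SD, n = 4; 0.64), and the nonmuscle myosin heavy chain MYH14 rose by 1.16. The microtubule-bound RhoA exchange factor ARHGEF2 fell by 1.30 on the log2 scale, from 195 to 200 CPM in the control libraries to 78.2 to 83.4 CPM, and SEPTIN10 (-1.09) and the myosin light chain kinase MYLK (-0.95) fell too. FLNA, a crosslinker of actin, changed by 0.19.

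The ESCRT and abscission genes downstream of CEP55 showed no common direction. Of 39 tested, 19 rose and 18 fell, with a median of 0.00, close to that of all genes. TTC19 (-0.96), the protease USP8 (-0.73) and the ESCRT-III subunit CHMP2A (-0.69) fell and CHMP2B rose (0.64). The most abundant of them went opposite ways: CHMP4B rose by 0.32 and PDCD6IP, which encodes the CEP55 partner ALIX, fell by 0.31 on the log2 scale.

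For comparison with the rest of the cell cycle, 44 of 46 other mitotic genes rose and 1 fell (median 0.69), led by WEE1 (1.49), DLGAP5 (1.14), CDCA3 (1.09) and SPC25 (1.08). The proliferation antigen MKI67 (1.00) and CENPF (1.00) were the most abundant of them. Of 45 G1/S and replication genes, 29 rose, 7 fell and 9 did not pass (median 0.27). MCM6 (1.12) and E2F2 (0.92) rose most, followed by RRM2 (0.84; other genes overlap 20.2% of its exon bases) and CDK2 (0.76), while MCM3 fell (-0.27) and CCND1 was not called (-0.03). The members' median of 0.76 thus lay near that of the other mitotic genes. Past 1.5-fold by glmTreat, 25 of the 46 other mitotic genes, 10 of the 19 midzone genes and 10 of the 26 passenger complex partners rose. In these lists 0 genes fell past 1.5-fold. Of the members 6 of 10 rose past 1.5-fold, and of the G1/S and replication genes 4 of 45. Whether the lists differ was not tested.

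**Figure D5:**
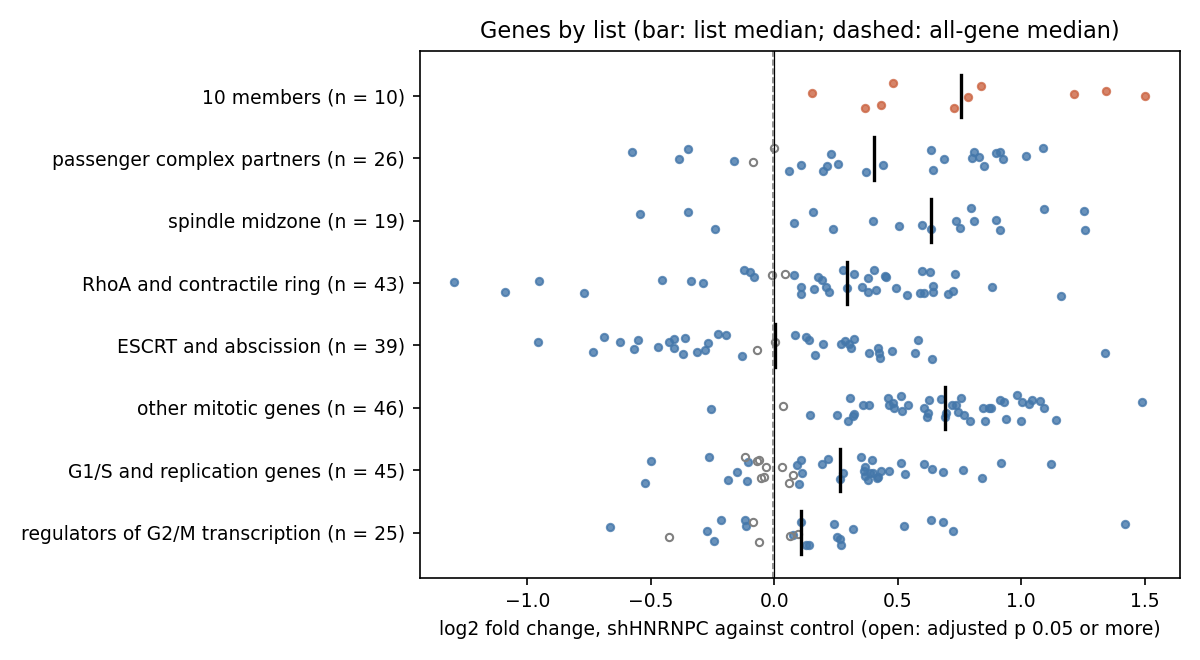
log2 fold change of each tested gene in the 10 members and 7 lists, with filled points called by edgeR and open points not called; black bars are list medians and the dashed line is the median of all tested genes (-0.01). Member values run from 0.15 to 1.5, and the ESCRT and abscission list is spread around 0.

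Among 9504 genes outside the members with at least 10 CPM, the profile over the 8 libraries closest to the mean of the members belonged to HSP90B1 (root mean square distance 0.014 log2 units), followed by TOP2A (0.020), COBL (0.022), JAG2 (0.025) and KPNA2 (0.025). HSP90B1 was at 506 to 519 CPM in the control libraries and 865 to 888 CPM in the shHNRNPC libraries. TOP2A, the mitotic topoisomerase, was at 323 to 333 and 564 to 574 CPM. This likeness is a description of 2 groups of libraries, since any gene with the same step between them is close.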

How the data were processed

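The authors deposited raw read counts per gene for 8 samples, not normalised. Per the series design text, reads were cleaned with fastp; hg38 is the build named in the submitters' processing notes. Which aligner, counter, gene annotation and strand mode were used is not given in the sources used here, so reads of overlapping genes cannot be separated, and overlaps above 20% of exon bases are given.

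Samples were grouped by the genotype label. Genes were kept with edgeR's filterByExpr (minimum count 10, minimum total count 15), scaled with TMM and tested with glmQLFit (robust) and glmQLFTest on the group term, or with glmTreat against 1.5-fold, with Benjamini-Hochberg adjustment over 12001 genes at 0.05. The SE of a log2 fold change was its size divided by the square root of F. Log2 CPM used a prior count of 2. Replicate libraries differed beyond sampling noise (chi-square per degree of freedom 2.66 to 3.70 within groups).

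The 10 members and all lists were chosen with earlier results of these data known. The text names HNRNPC, the members and, from each list, the 4 largest called changes (mean of 1 CPM or more in either group), and the 2 most abundant genes, besides the 5 genes closest in profile to the members; 3 list genes were not tested (MAP10, MYL9 and CHMP3). A gene in 2 lists was counted in both. Positions and promoters are RefSeq's (GRCh38.p14) and exons GENCODE's release 29. Software was R 4.3.3, edgeR 4.0.16, limma 3.58.1, DESeq2 1.42.0, Python 3.11.15 and scipy 1.17.1. DESeq2, other scalings and filters and left-out libraries were alternatives. Count ratios of members were set beside those of all pairs among the 11984 tested genes with a count in every library. The fit was run on simulated counts of 11907 genes, with 50 genes each changed by 1.25-, 1.5-, 2- and 4-fold. Of 11707 unchanged genes 10 were called. At 2-fold 48 of 50 were called and 43 passed 1.5-fold, and at 1.5-fold 43 were called and 0 passed. Far fewer genes changed there than in these data, so the simulation did not check scaling or error rates under so broad a change.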

Additional observations from a re-analysis of the deposited data

Results flagged for a closer look

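In groups of 4 libraries, a library was singled out where its gap to the nearest other, divided by the range of the group, was above Dixon's critical value for 4 values; chance does this in about 1 of 20 groups, and it occurred in 6 of 112 groups examined. Of the members only ECT2 was singled out: control library 4, at 171 CPM, stood above 160, 162 and 162 CPM (ratio 0.830). WEE1 was at 37.9 CPM in control library 2 and 31.9 to 32.3 CPM in the other 3 (0.937), and FOXM1 at 186 CPM in control library 2 against 197 to 198 CPM (0.869). FAM83D was at 64.6 CPM in control library 4 against 67.7 to 68.2 CPM (0.857), and USP9X at 274 CPM in the same library against 282 to 283 CPM (0.861). MYH14 was at 22.8 CPM in shHNRNPC library 3 against 21.5 to 21.7 CPM (0.840). Without control library 4 the log2 fold change of ECT2 was 0.46.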

How the results depend on the processing

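Under 18 alternatives (other scaling factors, no or stricter filter, DESeq2, no robust estimation, a replicate block, each library left out, and shHNRNPC libraries 1 and 4 or 2 and 3 left out together because those pairs separated in earlier results of these data), 10 members stayed higher and 0 lower, and 6 stayed past 1.5-fold under the 17 that allow glmTreat. The members' median log2 fold change ranged from 0.73 to 0.77, and from 0.75 to 0.77 with one library left out. The lowest member value under any of them was 0.13, for RACGAP1. With the replicate block the median was 0.76 and 10 members were higher, with the number of genes called over all genes within 1.5 times that without it; same-numbered libraries of the 2 groups correlated at -0.055 to 0.017 in their deviations from the group means, so the numbers are not shown to pair samples. No call of a member changed; among 45 other named genes, USP9X lost its call with total counts (0.04) or upper quartile factors (0.04), and CCND1 gained one with these 2 and DESeq2. The median of the ESCRT and abscission list turned to -0.036 with the 1 CPM filter. Pairs of members without overlap numbered 40 to 41 when libraries were left out, where the exact test cannot reach the threshold. Depth limited no member, but AURKC rests on about 1 CPM.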

Other observations

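A list of regulators of G2/M transcription, apart from the members, went both ways. Of 25 tested, 14 rose, 6 fell and 5 did not pass edgeR's test, with a median log2 fold change of 0.11. Over all tested genes 38.7% were called higher and 38.6% lower. MYBL2, which encodes B-MYB, was at 97.1 to 104 CPM in the control libraries and 261 to 278 CPM in the shHNRNPC libraries (1.42). FOXM1 was at 195 ± 6.04 and 302 ± 1.56 CPM (SD, n = 4; 0.64), and the repressor E2F8 (0.69) rose as well. PLK4 (0.73), also on the list and among those that rose, is the kinase of centriole duplication and not a promoter regulator. E2F4, a DNA-binding subunit of DREAM, fell (-0.24), and the NF-Y subunit NFYA fell from 41.1 ± 2.15 to 25.9 ± 1.15 CPM (-0.66). NFYB (0.11) and NFYC (0.26), chosen after their values were seen, rose. Their part in the change of the members was not tested.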
